A study of Sus scrofa with 2 samples.

Results

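In the chromatin of pig (Sus scrofa) spleen, 814 of the 3261 listed loops on chromosomes 1 to 18 joined the start and the end of the same topologically associating domain. A loop is a pair of loci with more contacts than its surroundings, and a topologically associating domain (domain below) is a stretch of chromatin that contacts itself more than its neighbours. A loop was taken when its left anchor overlapped the 20 kb on either side of a domain's start and its right anchor the 20 kb on either side of that domain's end. These loops are called joining loops here, and the 569 domains they met, of 1908 on the same chromosomes, are called joined domains. The members were chosen by the listed positions of loops and domains, both read from the same contacts, so loop span, domain length and contact values are given as descriptions, without tests.

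The data were in situ Hi-C of spleen tissue in 2 biological replicates, a single group without a treatment or a second tissue. The labels give no breed, age or sex. Only a loop list (3410 loops) and a domain list (1927 domains) for the whole series were used, so no value could be given for each replicate and no comparison over replicates could be made. Spleen holds many cell types in bulk, and a contact that is frequent in few cells cannot be told apart from one that is rare in many. The identity of the tissue cannot be checked from contact lists.

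Loop domains of this kind are known from mammalian cells. The ring-shaped cohesin complex is thought to extrude chromatin until it meets CTCF bound at facing sites, which leaves a corner of high contact at the apex of the domain and brings its edges together. Promoters and enhancers inside such a domain meet each other more readily than those outside it. CTCF sites and their orientation were not analysed here.

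Joining loops made up 24.96% of autosomal loops (95% Wilson interval 23.5 to 26.5%), and joined domains 29.8% of autosomal domains (27.8 to 31.9%). No loop joined more than 1 domain. A single joining pixel was listed for 375 domains, 2 pixels for 153, 3 for 31 and 4 for 10. In each of the 194 domains with 2 or more joining pixels, these lay in a single group of touching pixels. The rule largely sets this, since its window meets only a few adjacent anchor positions at each edge. Of joining loops, 71.7% touched another listed pixel, against 45.9% of other loops. The intervals take loops and domains as independent, which touching pixels are not.

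Domains with 4 joining pixels show what such a corner looks like. The domain of GCNT1, a glycosyltransferase that builds branched O-glycans, on chromosome 1 from 229360001 to 229660000 had 119, 102, 101 and 96 contacts. On chromosome 17, the 280 kb domain from 51710001 to 51990000 held CEBPB, a transcription factor of macrophages and acute inflammation, as its single whole protein-coding gene. Its 4 pixels had 164, 149, 141 and 141 contacts, at 1.71 to 2.06 times the contacts expected from the ring of pixels around each (the donut). CEBPB itself had an end in the left anchor of 2 of them. The domain of EEPD1 on chromosome 18 had 99 to 141 contacts, and that of CHIC2 and the homeobox gene GSX2 on chromosome 8 had 107 to 145, with an end of PDGFRA, a receptor for platelet-derived growth factor, in the right anchor of 2 pixels.

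Joining loops had a narrow range of spans. Their median span, taken between anchor starts, was 200 kb (quartiles 175 and 250 kb, range 100 to 1250 kb), against 150 kb for other autosomal loops (quartiles 100 and 275 kb, range 100 to 9125 kb). The rule sets this in part, because no listed autosomal domain was shorter than 120 kb. Of loops with a span of 100 kb, 29 were joining and 690 were not. At 225 kb the numbers were 106 and 109, the highest share of joining loops (49.3%) among spans with at least 10 of them. Only 15 joining loops (1.84%) spanned over 500 kb, against 235 other loops (9.60%). The chromosomal median was longer for joining loops on 15 of 18 chromosomes and equal on the other 3.

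**Figure D1:**
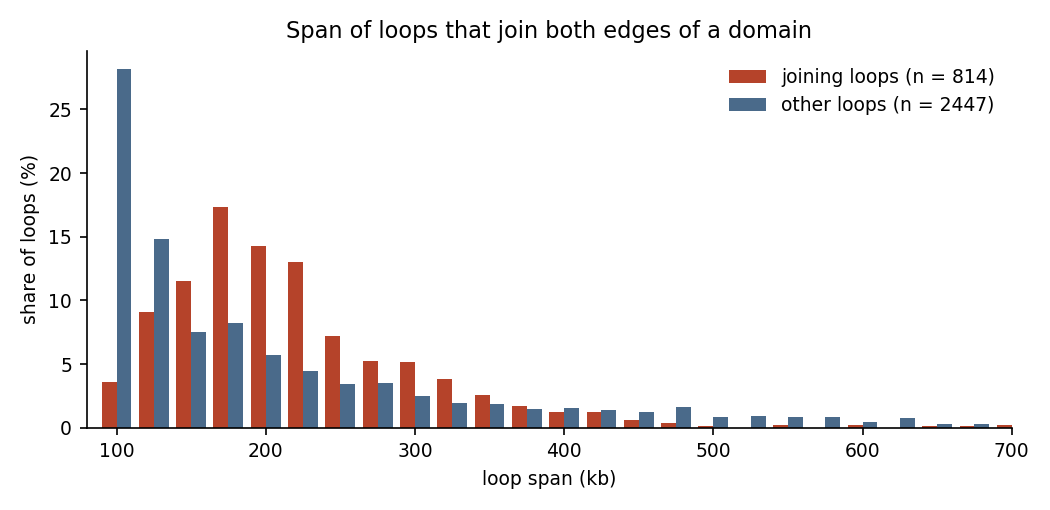
Share of joining loops (red, n = 814) and of other autosomal loops (blue, n = 2447) at each span in steps of 25 kb, shown up to 700 kb. Other loops are most frequent at 100 kb, and joining loops at 175 kb.

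The 5 longest joining loops closed domains that held 1 to 3 whole protein-coding genes. The longest, on chromosome 10, joined the anchor from 65725001 to 65750000 to that from 66975001 to 67000000, with 84 contacts against 28.9 expected. Its domain of 1260 kb held KLF6, a zinc finger transcription factor, as the single whole protein-coding gene. The next, of 1150 kb on chromosome 13, had 85 contacts against 30.1 expected. It led from an end of BCL6, the repressor that governs the germinal centre of B cell follicles, across LPP to an end of TPRG1. On chromosome 1 a loop of 1000 kb closed the domain of PAPPA, a protease of insulin-like growth factor binding proteins, with 65 contacts. On chromosome 10 a loop of 975 kb closed the domain of ZEB1, a repressor in epithelial and lymphoid cells, and ZNF438, with 84 contacts. The fifth, of 975 kb on chromosome 16, had 58 contacts, and PLK2, a kinase, and GAPT had ends in its right anchor.

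The observed count is the number of contacts listed for a pixel, not normalized. It had a median of 110 in joining loops (quartiles 92 and 130, range 40 to 295) and of 109 in other loops (78 and 134, range 10 to 371). Contacts were lower at longer spans, so loops of unequal span are hard to compare. Joining loops had the longer median span (200 against 150 kb), but other loops more often spanned over 500 kb (9.60% against 1.84%). Among loops of equal span, joining loops had more contacts. The median difference in log2 contacts, joining minus other, was 0.16, or 1.12-fold, over the 808 joining loops whose span was shared by at least 5 others. Over chromosomes it was 0.17 ± 0.10 (SD, n = 18) and above 0 on all 18, lowest on chromosome 8 (0.03) and highest on chromosome 17 (0.40). At 250 kb, for example, the median was 109 contacts in 59 joining loops (quartiles 93.5 and 119) and 93 in 85 other loops (76 and 110). The distributions thus overlapped widely. The contacts expected from the donut were also higher in joining loops at equal span. Their log2 difference was 0.12 (1.09-fold), above 0 on 15 of 18 chromosomes.

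The ratio of observed contacts to those expected from the donut differed less. Its median was 2.10 in joining loops (quartiles 1.92 and 2.32, range 1.48 to 3.50) and 1.96 in other loops (1.76 and 2.28, range 1.30 to 261). High ratios were rare among joining loops, of which 12 (1.47%) exceeded 3, against 204 other loops (8.34%). These shares were not taken at equal span. Other loops also included pixels with very few expected contacts (lowest 0.042, against 13.3 in joining loops). At equal span the difference in log2 ratio was 0.05, or 1.04-fold, with 0.04 ± 0.06 over chromosomes (SD, n = 18). The difference was above 0 on 15 chromosomes and smaller than its spread between them. Chromosome 11, with 7 joining loops, had the lowest value at -0.13. In the 1630 autosomal loops with the lowest FDR it was 0.01.

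The expected contacts around the pixel also differed in description. The lower-left neighbourhood of a pixel lies towards the diagonal of the contact map, that is between the anchors and inside the domain. Its expected contacts, relative to those of the donut, had a median of 1.08 in joining loops (quartiles 1.01 and 1.15) and 0.98 in other loops (0.91 and 1.05). At equal span the log2 difference was 0.12, with 0.11 ± 0.03 over chromosomes (SD, n = 18), above 0 on all 18. Against the lower-left neighbourhood, observed contacts were therefore less enriched in joining loops, with a log2 difference of -0.07 at equal span and 17 of 18 chromosomes below 0. Ratios against the horizontal and vertical neighbourhoods differed by 0.04 and 0.03. Domains and loops come from the same contacts, so this is no independent measure of the corners. No test was made of any of these differences, since loops are not replicates of a condition.

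**Figure D2:**
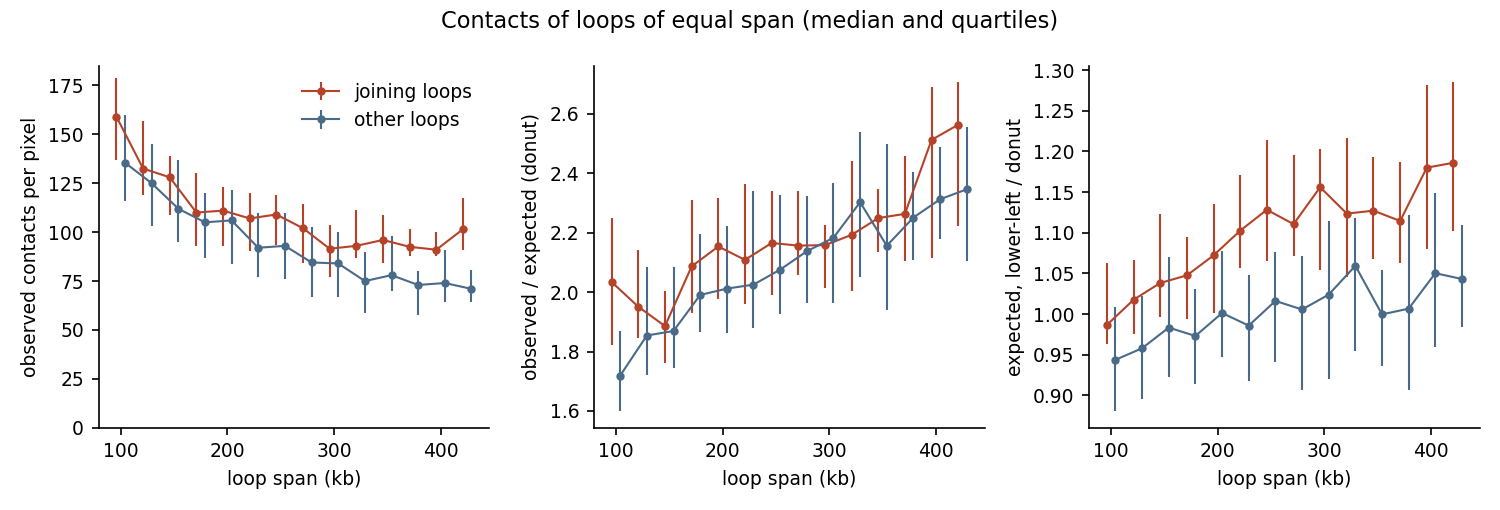
Observed contacts (left), observed over donut-expected contacts (middle) and lower-left over donut-expected contacts (right) by span, for joining loops (red) and other loops (blue), as medians with bars from the first to the third quartile, at spans with at least 10 joining loops. Joining loops lie above other loops in the left and right panels at every span shown, and the middle panel has spans in both orders.

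The share of joining loops averaged 25.3 ± 5.92% over chromosomes (SD, n = 18), with the highest share on chromosome 18, 31 of 83 loops (37.3%, Wilson interval 27.7 to 48.1%), and the lowest on chromosome 11, 7 of 58 (12.1%, 5.97 to 22.9%). Both were picked as the extremes of the 18, without a test. Chromosome 1 had the most joining loops, 92 of 345. The median of observed contacts in joining loops averaged 111 ± 11.6 (SD, n = 18 chromosomes), with 94 on chromosome 8 and 141 on chromosome 17 as the lowest and the highest.

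Other loops fell into kinds that differ from joining loops in different ways. The 1240 with both anchor midpoints in the same domain were shorter, with a median span of 125 kb, and had a median of 129 contacts and a ratio of 1.84. The 928 with no anchor midpoint in a domain had a median span of 200 kb, as joining loops did, with a median of 81 contacts and a ratio of 2.16. Of the 814 joining loops, 516 had both anchor midpoints inside the same domain. These kinds were not compared apart with joining loops at equal span. The equal-span differences above therefore hold only against all other loops together.

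Anchors of joining loops lay mostly just inside the domain. The left anchor's midpoint was on the inner side of the start in 696 of 814 loops (85.5%), at a median of 12.5 kb (quartiles 2.50 and 22.5 kb). The right anchor's midpoint was on the inner side of the end in 578 (71.0%), at a median of -7.50 kb (quartiles -17.5 and 2.50 kb). Offsets are midpoint minus edge, and the rule ends them at 27.5 kb on either side. The inward shift was larger at starts than at ends. Anchors were 25 kb wide and domain edges lay on a grid of 10 kb, and both edges fell within their anchors for 266 loops (32.7%). The domain was longer than the loop span for 672 loops, by a median of 20 kb over all 814.

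**Figure D3:**
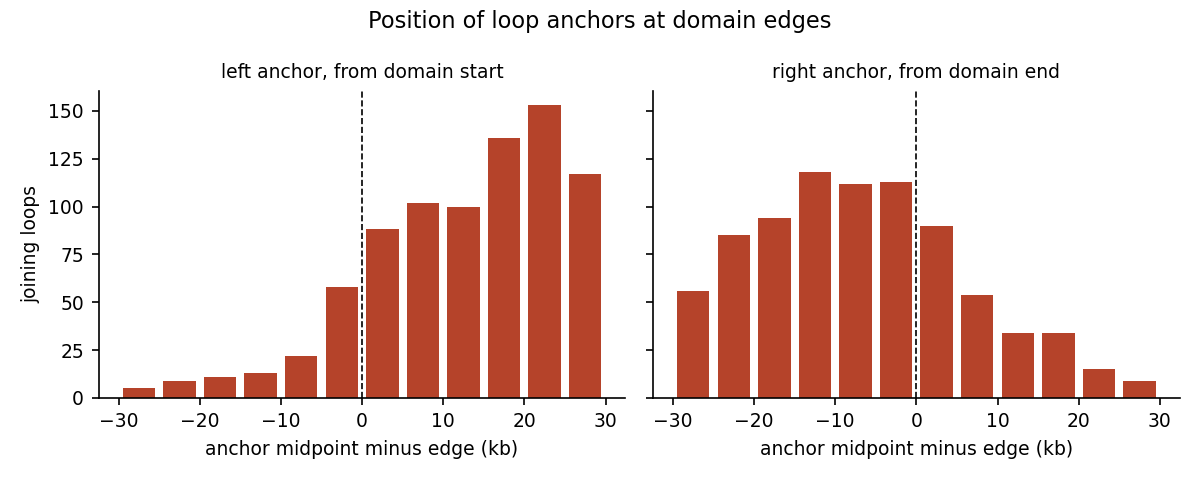
Number of joining loops by the position of the left anchor's midpoint relative to the domain start (left) and of the right anchor's midpoint relative to the domain end (right), in steps of 5 kb. Starts have their peak at 22.5 kb inside, near the limit the rule allows, and ends at 12.5 kb inside.

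The 20 kb limit had no break in values. In the 177 loops just inside it, with a larger gap of 15 kb between anchor and edge, the medians were 200 kb, 113 contacts and a ratio of 2.05. In the 157 loops just outside, with a larger gap of 20 kb, they were 175 kb, 110 contacts and a ratio of 2.01.

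Joined domains were short. Their median length was 220 kb (quartiles 180 and 280 kb, longest 1260 kb), against 280 kb for domains without a joining loop (quartiles 200 and 430 kb, longest 3390 kb), and the joined median was lower on 17 of 18 chromosomes. Of domains up to 150 kb long, 54 of 101 were joined (53.5%, Wilson interval 43.8 to 62.9%). From 300 to 400 kb 72 of 299 were (24.1%, 19.6 to 29.2%), and over 1000 kb 4 of 93 (4.30%, 1.69 to 10.5%). None of the 5 longest domains had a joining loop, among them that of AUTS2 and GALNT17 on chromosome 3 (3390 kb) and that of the lymphoid and neural crest regulator ZEB2 on chromosome 15 (2330 kb). Domains that overlapped another were joined in 50 of 213 cases (23.5%) and the rest in 519 of 1695 (30.6%).

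Joined domains also held fewer genes. They had a mean of 1.79 whole protein-coding genes (median 1, most 14), against 3.17 in other domains (median 2, most 61), with a lower mean on all 18 chromosomes. The order was the same at equal length. For 552 joined domains whose length was shared by at least 5 others, the mean was 1.80 genes, against 3.05 in other domains of equal length. That difference was -1.25 genes, with an SD of 0.63 over chromosomes and 17 of 18 below 0. No whole protein-coding gene lay in 125 joined domains (22.0%) and in 208 others (15.5%). Because unjoined domains include long gene-poor ones, the density over summed length was closer, at 7.21 and 7.77 genes per Mb.

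**Figure D4:**
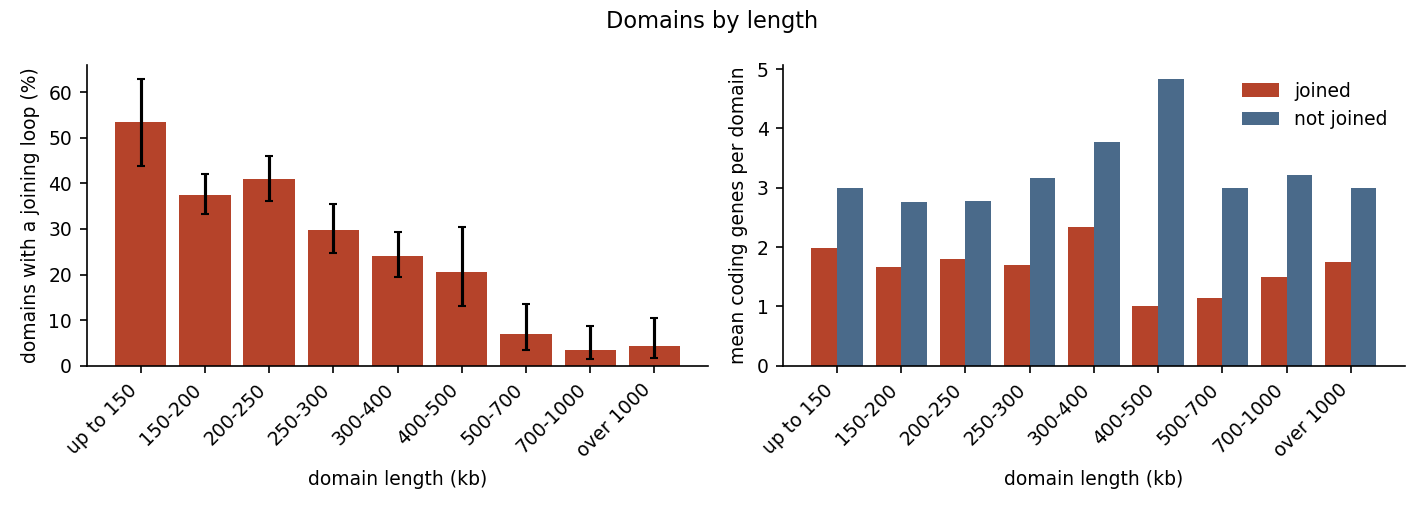
Left, share of domains with a joining loop by domain length, with 95% Wilson intervals. Right, mean whole protein-coding genes in joined (red) and other (blue) domains of each length class, lower in joined domains in all 9 classes. The classes over 500 kb held only 7, 4 and 4 joined domains. Medians were equal from 200 to 250 kb (1 and 1). They were higher in joined domains from 700 to 1000 kb (2 and 1) and over 1000 kb (1.5 and 1), and lower in the other classes.

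Inside joined domains, genes were sparse away from the edges. A gene end here is either annotated end of a protein-coding gene, since the table gives no strand and starts cannot be told from 3′ ends. In the 20 kb outside an edge there were 0.358 ends per 10 kb at joined domains, against 0.327 at others, and in the 20 kb inside 0.314 against 0.330. From 40 to 100 kb inside, the density was 0.175 at joined domains and 0.246 at others. Between 200 and 300 kb outside, the densities were 0.238 and 0.236. Since unjoined domains are longer, the densities were also taken over domains above 200 and up to 300 kb in length. In these, the zone from 40 to 100 kb inside had 0.155 ends per 10 kb in 235 joined domains and 0.261 in 414 others. The 20 kb outside the edge then had 0.334 ends in joined domains and 0.363 in others, the opposite order from that over all lengths, so the outer peak was not higher in joined domains of this length.

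**Figure D5:**
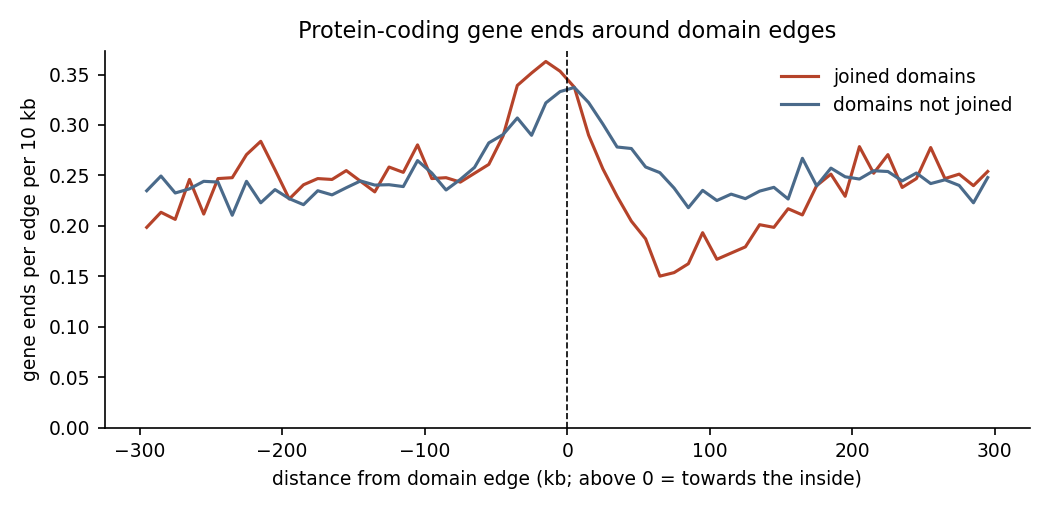
Protein-coding gene ends per edge in bins of 10 kb, from 300 kb outwards to 300 kb inwards of domain edges, for joined domains (red) and domains not joined (blue). Every edge counts in every bin, so inward bins beyond a domain's length lie past its other edge. The median length was 220 kb for joined and 280 kb for other domains. Both lines peak near the edge, and inside the domain the line of joined domains drops below that of others, to 0.150 at 65 kb.

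At the anchors themselves, gene ends were somewhat less frequent in joining loops than in other loops, by less than the spread between chromosomes. A protein-coding gene end was present at both anchors of 199 joining loops (24.4%, Wilson interval 21.6 to 27.5%), against 691 other loops (28.2%, 26.5 to 30.1%), with 27.3% for all autosomal loops. Weighted to the spans of joining loops, the share in other loops was 26.0%. Neither anchor had one in 266 joining loops (32.7%, 29.5 to 36.0%) and in 730 others (29.8%, 28.1 to 31.7%), with 30.5% for all. The share with both was higher in joining loops on 7 of 18 chromosomes, with a difference of -3.35 ± 7.66 percentage points (SD, n = 18). The right anchor had a gene end in 43.6% of joining loops (40.2 to 47.0%), against 48.7% of other loops (46.7 to 50.7%) and 46.9% of others at equal span. That share was higher in joining loops on 6 of 18 chromosomes, with a difference of -5.30 ± 10.6 points (SD, n = 18). For the left anchor the shares were 48.2% of joining and 49.7% of other loops. Ends of lncRNA genes were in an anchor of 204 joining loops (25.1%), against 28.8% of other loops weighted to equal span. Ends of miRNA genes met 5 joining loops (0.614%), against 0.928% of other loops at equal span, and those of tRNA genes met 10 (1.23%), against 1.47%.

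In 13 joining loops (1.60%, Wilson interval 0.936 to 2.71%) the 2 ends of a single gene lay in the 2 anchors, so that the loop spanned the gene from end to end. The share in other loops of equal span was 1.61%. These genes were C2H11orf49, SH3RF3, SPIDR, RXRG, KCNN3, SPIRE1, ANKRD17, FAM129A, SAMD4A, PITPNC1, NXN, ZNRF3 and 1 unnamed locus. PITPNC1, a phosphatidylinositol transfer protein on chromosome 12, had 139 contacts over 275 kb, and RXRG, a retinoid X receptor on chromosome 4, had 70 over 200 kb. ANKRD17 on chromosome 8 had the second highest ratio of the 13, at 2.58, after SH3RF3 at 2.66.

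Of the 8 joining loops with the highest ratios, 4 had no named gene end at either anchor. The highest was on chromosome 9, between anchors from 91625001 to 91650000 and from 91850001 to 91875000, with 151 contacts against 43.1 expected, a ratio of 3.50. It closed a domain whose single whole protein-coding gene was FAM126A. A loop spanning 325 kb of chromosome 13 had 73 contacts at a ratio of 3.23, with ends of RAD18, a ubiquitin ligase of DNA damage tolerance, and SRGAP3 in its left anchor. On chromosome 7, a loop of 200 kb closed the domain of the class II antigen presentation genes SLA-DRA, SLA-DRB1, SLA-DQA1 and SLA-DQB1 with 140 contacts at a ratio of 3.17, from an anchor with an end of BTNL2. On chromosome 10 a loop of 425 kb closed the domain of VIM, the intermediate filament vimentin, and TRDMT1 with 133 contacts (3.15). The domain of EMX2, a homeobox gene, and RAB11FIP2 on chromosome 14 was closed over 700 kb with 86 contacts (3.12). Elsewhere on chromosome 14, a loop of 200 kb with an end of BMS1, a factor of ribosome assembly, in its left anchor had 123 contacts (3.07). NUMB, an inhibitor of Notch signalling, lay alone in a domain of chromosome 7 closed with 167 contacts (3.05).

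The joining loops with the most contacts were short, all 100 to 150 kb. The first, on chromosome 7 from the anchor at 98325001 to 98350000 to that at 98450001 to 98475000, had 295 contacts against 110 expected. It joined an end of TMED10 to an end of FOS, an immediate early gene of the AP-1 factor. On chromosome 2, 260 contacts joined the anchor of ICAM1, an adhesion receptor of leukocyte traffic, to that of TYK2, a kinase of interferon receptors, around a domain that also held ICAM3 and ICAM4. On chromosome 12, 248 contacts closed a domain with AMZ2 and GNA13, a G protein of lymphocyte migration. RCSD1 on chromosome 4 lay in a domain closed with 231 contacts. PIM1, a kinase induced by cytokines, lay in one on chromosome 7 closed with 227. The domain of CTSL, a lysosomal protease, and FBP2 on chromosome 10 also had 227. TRIM39 and RPP21 on chromosome 7 had 247.

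Low ratios are named here with a single pixel kept per group of touching pixels. At this low end, a loop of 150 kb on chromosome 5 had 161 contacts at a ratio of 1.53. Its domain had no whole protein-coding gene. Among the other low ones, the loop between SELRC1 and ORC1, a subunit of the origin recognition complex, had 90 contacts at 1.58. The one with ends of CLOCK, a circadian transcription factor, and TMEM165 had 109 at 1.61.

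Some joined domains were crowded with genes. The domain with the most, 14, was that on chromosome 3 from 8020001 to 8370000, with GAL3ST4, GPC2, STAG3, a cohesin subunit of meiosis, and PILRA, an inhibitory receptor of myeloid cells, closed by a loop with 133 contacts. On chromosome 15 a domain of 160 kb with 12 genes, among them ATG9A, which acts in autophagy, and TUBA4A, had 3 joining pixels of 108 to 130 contacts. A domain of 200 kb on chromosome 7 held 11, including CNPY3, a chaperone of Toll-like receptors, and PEX6. Domains with 10 genes each lay on chromosome 12, with CXCL16, PLD2 and ARRB2, and on chromosome 2, with SLC3A2, NXF1 and POLR2G. The pixels of the domain on chromosome 2 had 214 and 210 contacts.

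Of 18722 autosomal protein-coding genes, 850 (4.54%) met a joining loop with an end inside its anchor and 1018 lay whole inside a joined domain (5.44%). Any autosomal loop reached 17.8% of genes and any listed domain held 26.8%. The 17 gene lists below are described by counts against these shares, without tests, and neighbouring members of a list can share a domain.

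Interferon genes had the highest share of members inside joined domains, 9 of 38 in 5 domains (23.7%), with 3 at joining anchors (7.89%). Any listed domain held 16 of the 38 (42.1%), also above the 26.8% of all genes. The first place in joined domains rested on chromosome 13. Without it, 4 of 33 members (12.1%) were in joined domains, the sixth highest share of the 17 lists. On chromosome 13 the domain from 196760001 to 197040000 held IFNAR1 and IFNAR2, the receptor chains of type I interferon, IFNGR2, a chain of the interferon gamma receptor, and IL10RB, a chain shared by receptors of IL-10 and type III interferon. Its 2 joining loops had 115 and 103 contacts at ratios of 1.84 and 2.11, and the second led from an end of IFNAR2 to an end of IFNGR2. Also on chromosome 13, the antiviral GTPases MX1 and MX2 lay with FAM3B in a domain closed with 70 contacts at 2.10. The guanylate-binding proteins GBP1 and GBP2 on chromosome 4 lay in one closed over 300 kb with 132 contacts at 2.43. DDX58, the sensor of viral RNA also called RIG-I, lay in a domain of chromosome 10 with 135 and 108 contacts, and SOCS1, the inhibitor of cytokine signalling, in one of chromosome 3 with 111 and 109.

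Of the NF-kB list, 5 of 25 members (20%) lay in joined domains, each in a domain of its own, and 0 at joining anchors. Any listed domain held 15 of the 25 (60%), also above the 26.8% of all genes. NFKBIA, which holds NF-kB in the cytoplasm, lay with PSMA6 in a domain of chromosome 7 closed with 116 contacts at a ratio of 2.36. NFKBIZ, a nuclear member of the same inhibitor family, was alone in a domain of chromosome 13 with 119 and 91 contacts at 3.03 and 2.70. TNFAIP3, the ubiquitin-editing enzyme A20, was alone in one of chromosome 1 with 102 contacts. MALT1, a protease of antigen receptor signalling, was alone in another of chromosome 1, with 115 and 105. IKBKB, a kinase that frees NF-kB, shared one on chromosome 17 with PLAT, POLB and DKK4, closed with 129.

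Macrophage and monocyte genes lay in joined domains in 5 of 28 cases (17.9%), each in its own domain, of 9 in any domain. Besides CEBPB, these were ITGAM, the CD11b integrin chain, with 191 and 119 contacts, MERTK, a receptor for dying cells, with 113, and VCAM1, an adhesion molecule, with 104. The fifth was SLC40A1, the iron exporter ferroportin, by which macrophages return iron from old red cells, alone in a domain of chromosome 15 with 68 contacts at a ratio of 2.01. MERTK and CEBPB also had an end in a joining anchor.

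Cytokine and receptor genes lay in joined domains in 7 of 47 cases (14.9%), in 7 domains. Any listed domain held 23 of the 47 (48.9%), also above the 26.8% of all genes. IL6 was alone in one of 220 kb on chromosome 9, from 91340001 to 91560000, with 85 contacts at a ratio of 2.25. CXCR4, the receptor that retains cells in marrow and lymphoid tissue, lay with DARS in one on chromosome 15, closed over 450 kb with 101 contacts at 2.32. CSF1, the growth factor of macrophages, had 130 contacts, CSF2RB, the shared chain of the GM-CSF, IL-3 and IL-5 receptors, had 149, and IL6ST, the signalling chain gp130, had 130 and 124. IL10RB and CXCL16 are given above.

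T and NK cell genes lay in joined domains in 5 of 38 cases (13.2%), and 4 of the 5 are described here. Any listed domain held 22 of the 38 (57.9%), also above the 26.8% of all genes. CD5 and CD6, related surface receptors of T cells, shared one on chromosome 2 with 101 contacts. CCR7, the receptor that guides cells to the T zone, lay in one on chromosome 12 whose loop led to an end of TOP2A with 139 contacts, and the domain of PRF1, the pore-forming protein of killer cells, had 98. Plasma cell genes were there in 2 of 13 (15.4%), of 4 in any domain, TNFRSF17, the BCMA receptor, with 121 and 113 contacts and XBP1, a factor of the secretory programme, with 118 and 93. B cell genes were there in 2 of 23 (8.70%), of 5 in any domain, CXCR5, the receptor for follicle entry, with 112 contacts and TNFRSF13C, the BAFF receptor, with 131. Genes of dendritic cells and antigen presentation were there in 2 of 22 (9.09%), of 14 in any domain (63.6%, also above all genes). These 2 were CCR7 and IRF8, a factor of myeloid and B cell fate. The SLA class II genes named above also lay in a joined domain but are not in this count. IRF8 was alone in its domain, closed with 126 contacts at 2.26. TAP2, a peptide transporter, had an end in the right anchor of a loop from BTNL2 with 125 contacts.

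Other lists had shares inside joined domains near or below the 5.44% of all genes. At joining anchors, ribosomal proteins (6.33%), chromatin architecture (7.41%) and housekeeping genes (6.67%) were above the 4.54% of all genes, each with 5 members or fewer. The remaining lists of this paragraph were below it there. Developmental transcription factors lay in joined domains in 5 of 74 cases (6.76%), in 3 domains, with HOXC4, HOXC8 and HOXC10 in a domain closed by a loop to an end of SMUG1 with 95 contacts at 2.57. Ribosomal proteins were there in 3 of 79 (3.80%) and at joining anchors in 5 (6.33%), with 175 and 172 contacts for RPL3. Chromatin architecture genes were there in 1 of 27 (3.70%) and at joining anchors in 2, MAU2, a cohesin loader, with 165 contacts, and SMC3, a cohesin subunit, with 149 and 126. Housekeeping genes were there in 1 of 30, ACTB, with 143 contacts. Neuronal genes were there in 0 of 37, and KCNA2 was the single member at a joining anchor. None of 24 stromal and vessel, 15 megakaryocyte and platelet, 14 erythroid, and 15 neutrophil and mast cell genes lay in a joined domain. Few members of the erythroid and stromal lists were in any listed domain, 1 and 3, against 10 of the 15 megakaryocyte genes.

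Some joined domains stood next to each other. In 44 pairs the end of one lay within 50 kb of the start of the next, and these pairs held 86 joined domains (15.1%). Of other domains, 131 (9.78%) had a joined domain within 50 kb in the same sense. A neighbour of either kind within 50 kb was present for 201 joined domains (35.3%) and 356 other domains (26.6%). Among these, a joined neighbour was present for 42.8% of joined domains (Wilson interval 36.1 to 49.7%) and 36.8% of other domains (32.0 to 41.9%). The domain of the interferon receptors had such neighbours on both sides, one with OLIG1 and OLIG2, transcription factors of glial cells, from 196490001 to 196730000, and one with GART, SON and DONSON from 197080001 to 197230000. IL6 stood next to RAPGEF5, VCAM1 next to S1PR1, a receptor that guides lymphocyte exit, and FOS next to JDP2, a repressor of AP-1.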

How the data were processed

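In situ Hi-C with DpnII was run on 2 spleen samples, and both tables cover the series. Per the submitters' processing notes HiC-Pro 3.1.0 was used, and per the file headers juicer_tools 1.9.9 wrote the loop table. For the domain caller, genome build, depth and any pooling of replicates, the sources used here give nothing. Observed contacts are whole-number counts, deposited without normalization. Per the file headers the table also holds the contacts expected from 4 neighbourhoods and a q-value against each, the largest taken as the FDR (at most 0.0999). A bin score in the deposited table was not used.

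Joining loops were found by strict overlap with windows of 20 kb, in Python 3.11.15 with pandas 2.3.3. Equal spans or lengths were compared where at least 5 others shared them. Errors are SDs over the 18 autosomes, and Wilson intervals cover counting error only. Genes came from the RefSeq table of Sscrofa11.1, taken to be the files' build because gene ends peaked at domain edges and from general knowledge of the scaffold names. Of 585 list entries, 549 matched. Loops named were from the 8 with the highest ratio, the 8 with the most contacts and the 5 longest. Some of the 5 with the lowest ratio were also named. These were ranked with a single pixel kept per group of touching pixels. Domains named were from the 5 with the most loops, the most genes, or the greatest length without a joining loop. A few items that the rule selects are not reported here. The rule named up to 4 genes per list, and further list genes were chosen after their values were seen. Members and lists were chosen with earlier results of these data known. The rule was tested on planted loops, and the equal-span difference on shuffled ratios with a planted shift. Shuffling removed any relation of the ratio to span, so the adjustment for span was not itself tested. The neighbour counts and the lists without chromosome 13 were added after seeing the data. Alternatives were other windows, single pixels, lower FDR, non-overlapping domains, all genes and wider anchors.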

Additional observations from a re-analysis of the deposited data

How the results depend on the processing

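Joining loops were 12.9% of autosomal loops with windows of 10 kb, 34.3% with 30 kb, 20.1% with only the strongest of touching pixels, 29.2% in the 1630 loops with the lowest FDR and 22.9% with domains that overlap no other, against 24.96% as reported. Joined domains were 18.4% with 10 kb, 37.3% with 30 kb, 23.7% with a single pixel and 19.8% with the lowest FDR, against 29.8%. A wider window can only add joining loops and a narrower one only remove them, and the cause of the other shifts was not tested. The median span was 225 kb with 10 kb windows, and the median ratio 2.24 in the loops with the lowest FDR. With all annotated genes, 32.9% of joining loops had a gene end at both anchors, 22.9% at neither, and the median joined domain held 2 genes. With anchors extended by 10 kb on each side, the shares were 43.2% and 15.5%. An inner loop was listed in 19.3% of joined domains, and in 46.4% once pixels touching the joining loop were counted. Interferon response members in joined domains numbered 9 as reported and 4 without chromosome 13, and those of the NF-kB list 5 and 4. The other 57 of 75 values moved by less than the spread between chromosomes, the interval of the share or 1.5 times a count, and none changed sign. For the equal-span difference in log2 ratio this limit says little, since the spread (0.058) exceeded the difference itself (0.051). Its fall to 0.007 in the loops with the lowest FDR was thus counted as unmoved. The settings for inner loops, gene lists, genes per domain of equal length and single chromosomes were chosen after seeing the data. No paired analysis was possible because the tables hold no value per replicate. Depth per replicate is unknown. Precision can be read only from the contacts per joining loop, 40 to 295, and from its FDR (median 0.0061, at most 0.0977).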

Other observations

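Other loops inside a joined domain were less often listed than inside a domain without a joining loop, but only under 1 way of counting. Leaving out pixels that touch the joining loop, 110 of 569 joined domains (19.3%) and 550 of 1339 others (41.1%) held such a loop, and at equal length the shares were 18.5% and 43.6%. With touching pixels counted, they were 46.0% and 44.0% at equal length.

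Outside the autosomes, 1 of 37 loops on chromosome X joined both edges of a domain, over 125 kb with 66 contacts at a ratio of 2.49, among 15 domains. On chromosome Y, with 104 loops, no domain was listed. An unplaced scaffold with 4 domains and 3 loops had 1 joining loop, of 300 kb with 96 contacts. A joining loop shared an anchor with a loop of another group of pixels in 216 of 814 cases (26.5%), against 676 of 2447 other loops (27.6%).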
